A study of Mus musculus with 6 samples.

Results

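The immunity-related GTPases (IRGs) are a family of interferon-inducible GTP-binding proteins of the mouse, and 6 of them, *Irgm1*, *Irgm2*, *Igtp*, *Iigp1*, *Tgtp1* and *Tgtp2*, were followed here by gene symbol in the RNA of peritoneal macrophages (PEMs). Their Entrez identifiers in the deposited table are 15944, 54396, 16145, 60440, 21822 and 100039796. All 6 were among the 15415 genes listed and among the 9030 genes that passed the filter on low values, a mean of at least 1 FPKM in one group. FPKM is the number of reads of a gene scaled by its length and by the reads of the library, so that levels can be compared between genes. RNA-seq was done on 6 libraries, 3 of them CKO (LysM-Cre; *Tim-4* fl/fl, numbered 1 to 3) and 3 Control (*Tim-4* fl/fl without Cre, also numbered 1 to 3), and the comparison asks which genes differ when macrophages lack Tim-4, a receptor for phosphatidylserine. All mice carried the floxed allele, built with a vector that spans intron 1 to intron 3 of *Timd4* and carries a pair of loxP sites, and the methods give C57BL/6J males at 6 to 8 weeks of age. Cre was driven by the lysozyme gene *Lyz2*, which is active in macrophages, neutrophils and other myeloid cells. The controls carried no Cre, so that an effect of Cre and an effect of the deletion cannot be told apart. Per the methods, PEMs were collected 3 days after an injection of 1 ml of 6% starch, and LPS, the treatment that the labels give for all 6 libraries, was used on PEMs at 1 μg/ml for 3.5 hours. Whether the sequenced PEMs were treated in just this way is not stated, and no library was labelled as unstimulated. The libraries were grouped by their titles, because the genotype given with each sample is reversed relative to its title.

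IRG proteins defend cells against bacteria and protozoa that live inside vacuoles, and they are made after exposure to interferons, above all interferon-γ through the receptor, the kinases JAK1 and JAK2 and the factor IRF1. The regulators of the family, Irgm1, Irgm2 and Igtp (also called Irgm3), sit on the membranes of the cell's own organelles and hold the effectors in their inactive form there. The effectors, which include Iigp1 (Irga6) and the products of *Tgtp1* and *Tgtp2* (Irgb6), gather on the vacuole of a pathogen and break its membrane. LPS induces the same genes in macrophages, largely through the type I interferon that these cells secrete.

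Promoters of 5 of the 6 members were found in RefSeq (GRCm38.p6), and the 100 bases before the transcription start are shown because elements through which interferons act on such genes are known to lie there. Each is printed 5′ to 3′ on the strand of the gene. Capitals mark 2 motifs, searched on both strands: the interferon-γ activated sequence (GAS, TTCNNNGAA) and an element of the type of the interferon-stimulated response element (ISRE-type, GAAANNGAA, to which IRF factors bind). The GAS letters read the same on both strands. The windows were chr11:48871421-48871520 for *Irgm1*, chr11:48992247-48992346 for *Tgtp1* and chr11:49064213-49064312 for *Tgtp2*, all on the minus strand, and chr11:58199456-58199555 for *Igtp* and chr11:58214877-58214976 for *Irgm2*, both on the plus strand.
Irgm1: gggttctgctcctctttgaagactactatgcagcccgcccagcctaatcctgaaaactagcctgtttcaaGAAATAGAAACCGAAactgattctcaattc
Irgm2: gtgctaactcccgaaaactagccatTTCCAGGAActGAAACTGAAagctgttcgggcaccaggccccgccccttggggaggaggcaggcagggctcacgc
Igtp: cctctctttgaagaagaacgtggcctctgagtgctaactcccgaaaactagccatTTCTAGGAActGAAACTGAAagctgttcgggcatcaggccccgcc
Tgtp1: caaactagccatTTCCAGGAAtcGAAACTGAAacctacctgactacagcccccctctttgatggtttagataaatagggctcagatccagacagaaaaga
Tgtp2: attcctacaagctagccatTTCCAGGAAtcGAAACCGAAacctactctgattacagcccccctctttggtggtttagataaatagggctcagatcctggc

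*Irgm1* had a pair of ISRE-type matches that overlap, starting 30 and 24 bases before the transcription start, and no GAS in this window. *Irgm2*, *Igtp*, *Tgtp1* and *Tgtp2* each had a GAS, starting 75, 45, 88 and 81 bases before the start, and 2 bases behind it an ISRE-type match on the same strand. Of 32851 promoters of 300 bases (250 before and 50 after the start), 8.30% held a GAS, 8.56% an ISRE-type match and 1.07% both. The GAS with an ISRE-type match 2 bases behind it was noticed in these windows and then counted: 8 promoters held it, 4 of them those of the members and the others those of *Adar*, *Gm12185*, *Olfr382* and *LOC115488470*. Of these others, *Gm12185* shares stretches of its transcript with *Tgtp1* and *Tgtp2*. The windows are related by sequence: those of *Igtp* and *Irgm2* shared an identical run of 29 bases and those of *Tgtp1* and *Tgtp2* one of 27. A motif match is a description of the letters and does not show that a factor was bound.

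**Figure D1:**
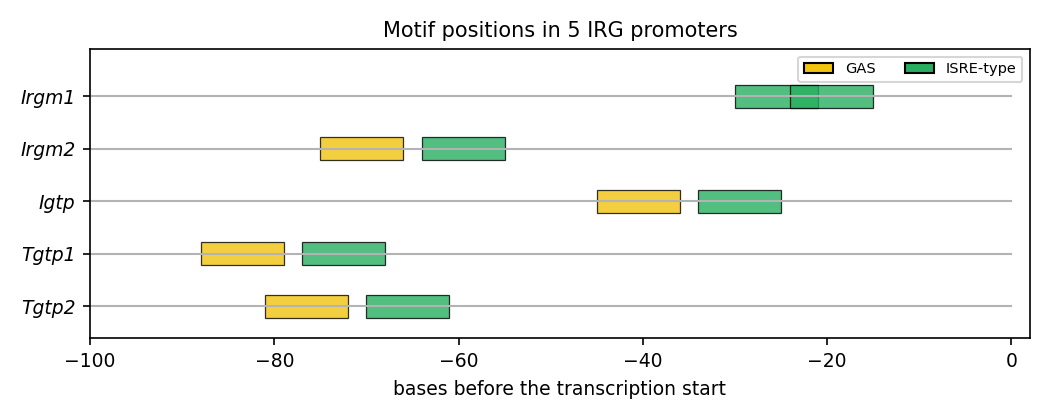
Positions of the GAS (yellow) and ISRE-type (green) matches in the 100 bases before the transcription start (x axis, bases) of 5 IRG promoters, one gene per line. In 4 of the 5, the GAS is followed after 2 bases by an ISRE-type match; *Irgm1* has 2 overlapping ISRE-type matches closer to the start.

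The deleted gene and the Cre locus were looked at first. *Timd4* had 0.333, 0.394 and 0.246 FPKM in the CKO group against 19.5, 12.0 and 1.19 FPKM in the Control group (values are given in the order of libraries 1 to 3 throughout), so every CKO library lay below every Control library and Control library 3 was near the CKO level. In bulk RNA as here, fewer cells of a type and less RNA per cell cannot be told apart. *Lyz2* was at 41.4, 4656 and 106 FPKM in the CKO group against 7090 to 8482 FPKM in the Control group. CKO library 2 thus lay far above the other CKO libraries, yet below every Control library. The libraries held 36170767 to 42217558 reads on the listed genes. The labels do not say whether the libraries of a group came from separate mice, so p-values measure the spread between these libraries, which may be technical.

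*Irgm1*, the regulator that is known for control of mycobacteria and for its link to autophagy, had the highest level of the 6 members in every library. It was at 285, 301 and 261 FPKM in the CKO group against 206, 157 and 92.2 FPKM in the Control group. The groups did not overlap, and Control library 3 was the lowest of all. The means were 283 ± 19.9 and 152 ± 56.9 FPKM (SD, n = 3 each), 1.86-fold apart. The log2 fold change of FPKM + 1, CKO minus Control, was 0.97 (standard error 0.28, 95% interval 0.32 to 1.61), and its adjusted p of 0.0768 in limma, a linear model fitted over all tested genes with Benjamini-Hochberg adjustment, missed the threshold of 0.05. It passed when the replicate number entered the fit as a block (adjusted p = 0.0485 in limma), without Control library 1 (1.22, limma adjusted p = 0.0371) and without Control library 3 (0.65, adjusted p = 0.0387 in limma), and over all alternatives the adjusted p ran from 0.0371 to 0.255.

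*Irgm2*, another regulator, which resides mainly at the Golgi, stood at 93.3, 103 and 86.7 FPKM in the CKO group against 69.9, 51.3 and 21.6 FPKM in the Control group. The groups did not overlap here either, and Control library 3 was again the lowest. Its log2 fold change was 1.12 (standard error 0.39, 95% interval 0.21 to 2.03) with an adjusted p of 0.118 in limma. Without Control library 1 it was 1.47 (adjusted p = 0.0468 in limma) and without Control library 3 it was 0.64 (adjusted p = 0.0477 in limma), both past the threshold, and the adjusted p over all alternatives ran from 0.0468 to 0.335.

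*Igtp*, the regulator of the endoplasmic reticulum and lipid droplets, was at 145, 152 and 112 FPKM in the CKO group against 124, 81.6 and 32.4 FPKM in the Control group. Control library 1 was above CKO library 3, so the groups overlapped. The log2 fold change was 0.96 (standard error 0.44, 95% interval -0.09 to 2.0) with an adjusted p of 0.211 in limma. It passed under none of the 12 alternatives, in which its log2 fold change lay between 0.42 (without Control library 3) and 1.38 (without Control library 1), though in 3 of them, without CKO library 1, CKO library 2 or Control library 2, only 30, 63 and 8 of all tested genes were called.

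*Tgtp2* and *Tgtp1* are near-identical copies that encode the effector Irgb6. *Tgtp2* was at 41.1, 50.0 and 37.0 FPKM in the CKO group against 42.2, 20.2 and 7.09 FPKM in the Control group. Control library 1 lay within the CKO range and the other Control libraries lay below it. Its log2 fold change was 1.15 (standard error 0.54, 95% interval -0.11 to 2.42, adjusted p = 0.213 in limma). Without Control library 1 it rose past the threshold (1.73, adjusted p = 0.0456 in limma), and without Control library 3 it was 0.52 (adjusted p = 0.281 in limma). The adjusted p over all alternatives ran from 0.0456 to 0.479.

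*Tgtp1* was far lower, at 1.85, 3.01 and 2.65 FPKM in the CKO group against 1.99, 2.37 and 0.482 FPKM in the Control group. These values rest on 49 to 357 reads per library, against 722 to 5943 for *Tgtp2*. The groups overlapped, and the log2 fold change of 0.49 (standard error 0.31, 95% interval -0.24 to 1.23) had an adjusted p of 0.343 in limma. It was called under none of the 12 alternatives, in which it ran from 0.13 without Control library 3 to 1.03 with voom on the recovered reads, and was 0.82 with a pseudocount of 0.1. As for *Igtp*, few of all tested genes were called without CKO library 1, CKO library 2 or Control library 2. The ratio of *Tgtp2* to *Tgtp1* FPKM ran from 14.0 to 22.3 in the CKO libraries and from 8.53 to 21.2 in the Control libraries. Of all stretches of 100 bases in the longest coding transcript (GENCODE M21), 83.3% of those of *Tgtp1* and 80.4% of those of *Tgtp2* were found in a transcript of another gene, nearly all in that of each other. How reads that match both were counted is not given in the sources used here, so the division of reads between these copies is uncertain. For *Igtp* and *Irgm2* such shares were 5.67% and 2.48%, and *Irgm1* and *Iigp1* had none.

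*Iigp1*, the best studied effector, had another pattern. It was at 3.80, 9.23 and 4.16 FPKM in the CKO group against 16.3, 15.7 and 1.10 FPKM in the Control group, so Control libraries 1 and 2 were above every CKO library and Control library 3 was below them all. The log2 fold change was -0.42 (standard error 0.80, 95% interval -2.29 to 1.45, adjusted p = 0.762 in limma). Without Control library 3 it was -1.43 and past the threshold (adjusted p = 0.0300 in limma), and without Control library 1 or 2 it was 0.10 and 0.07, on the other side of 0. In that fit without Control library 3, 8.93% of 9006 genes were called lower and 5.87% higher, and *Iigp1*, *Irgm1* and *Irgm2* were among them. Without Control library 1, in which *Irgm1*, *Irgm2* and *Tgtp2* were called, 3.06% of genes were called higher, and under the replicate block, in which *Irgm1* was called, 3.90%. The summed markers of B cells had the same order among the Control libraries as *Iigp1* (115, 78.8 and 27.5 FPKM in Control libraries 1 to 3) but lay at or below 5.52 FPKM in every CKO library, and their part in the values of *Iigp1* was not tested.

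**Figure D2:**
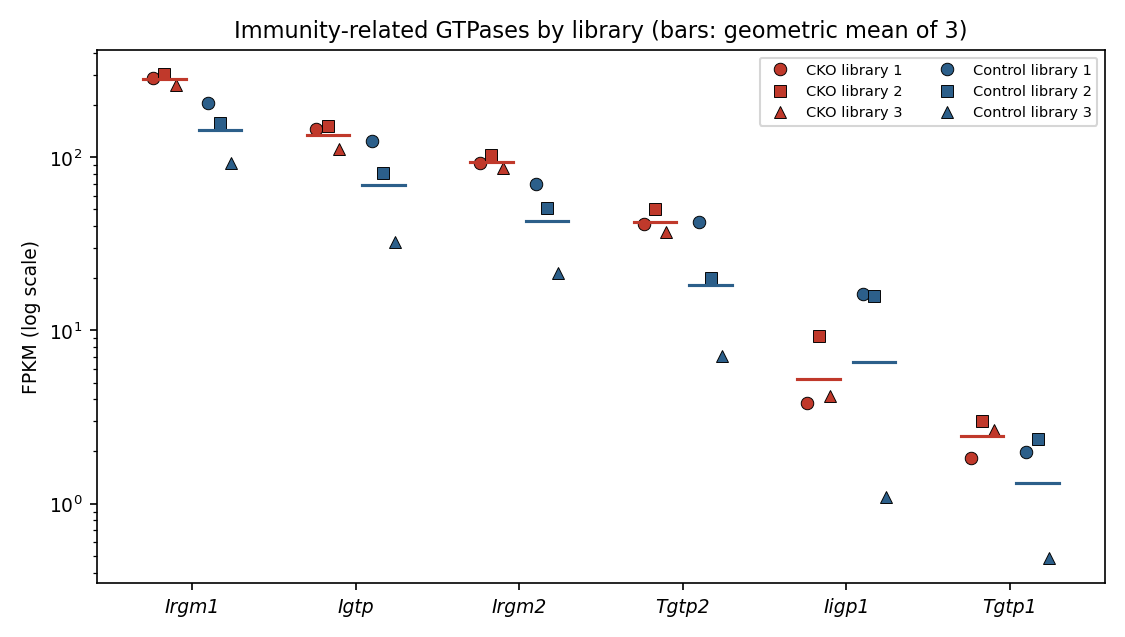
FPKM of the 6 members (y axis, log scale) in each CKO library (red) and Control library (blue), with symbols for the library number and bars at the geometric mean of 3 libraries. The triangle of Control library 3 is the lowest point of every gene, and the groups stand apart for *Irgm1* and *Irgm2*.

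In all, 0 of the 6 members passed the threshold in limma, while 7.31% of the 9030 tested genes did, 2.57% higher and 4.74% lower in the CKO libraries. At an unadjusted p under 0.05 there were 2 of 6 (*Irgm1* and *Irgm2*) and 27.6% of all tested genes, and voom on the recovered reads called 0 of 6, with 2 of 6 at an unadjusted p under 0.05. The groups were apart, with CKO above, in 2 of 6 members and in 11.1% of tested genes, and with CKO below in 0 of 6 and in 23.0%. The fold change was positive in 5 of 6 members, with a median of 0.96, beside a median of -0.11 over all tested genes. Rescaling by the median of ratios brought the median of all genes to 0.00 (rounded) and moved the fold change of *Irgm1* to 1.09 and that of *Iigp1* to -0.33, with no change of direction in any member. Without CKO library 2, which had the high *Lyz2* level, only 0.699% of 9016 tested genes were called in limma, so that the 0 of 6 members called there says nothing of the members, and their log2 fold changes were 0.92 for *Irgm1*, 1.06 for *Irgm2*, 0.87 for *Igtp*, 1.04 for *Tgtp2*, 0.39 for *Tgtp1* and -0.77 for *Iigp1*. With 3 libraries against 3, an exact two-sided permutation test of a single gene cannot give a p below 0.1.

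**Figure D3:**
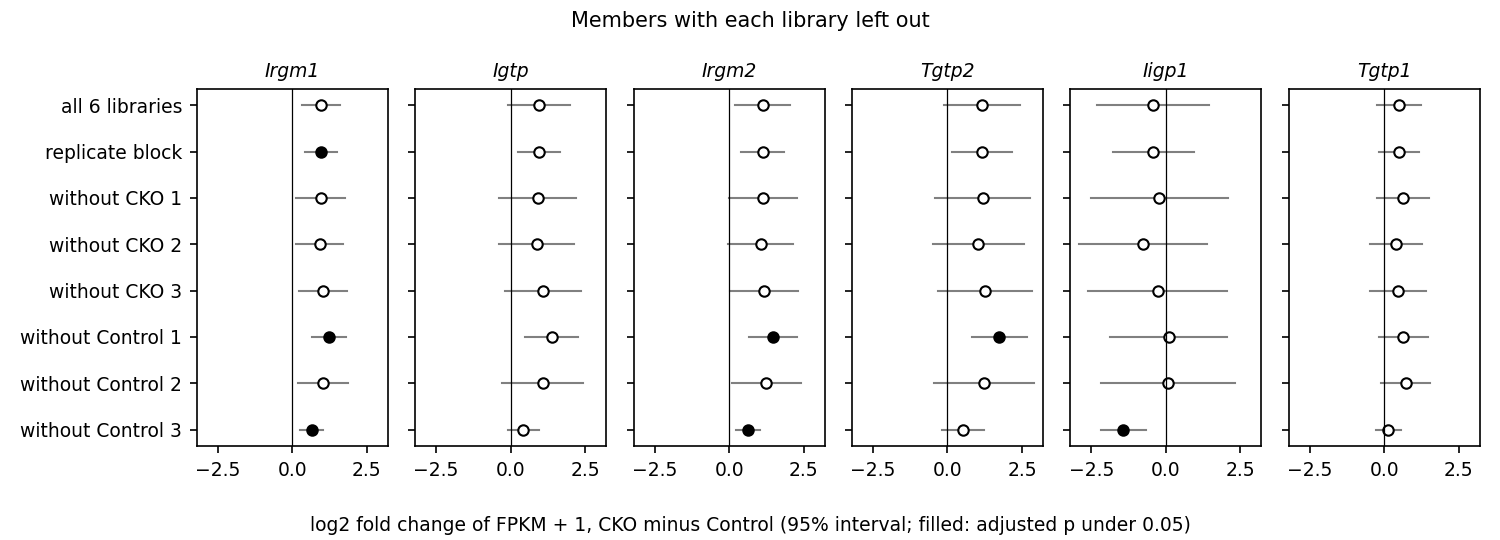
Log2 fold change of FPKM + 1, CKO minus Control (x axis), with its 95% interval, for each member in the fit of all 6 libraries, under the replicate block and with each library left out. Filled points have an adjusted p under 0.05: *Irgm1* in 3 of these fits, *Irgm2* in 2, *Tgtp2* and *Iigp1* in 1 each, the last of them on the negative side.

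The spread of the members lay mainly in the Control libraries. The SD of log2(FPKM + 1) in the Control group ran from 0.58 for *Irgm1* to 1.75 for *Iigp1*, with a median of 0.92 beside 0.23 over all tested genes. In the CKO group it ran from 0.10 for *Irgm1* to 0.60 for *Iigp1*, with a median of 0.23 beside 0.14. Control library 3 was the lowest Control library in 6 of 6 members and in 26.6% of tested genes. Its FPKM was 0.508 of the mean of the other Control libraries for *Irgm1*, 0.356 for *Irgm2*, 0.314 for *Igtp*, 0.227 for *Tgtp2*, 0.221 for *Tgtp1* and 0.0684 for *Iigp1*. The levels of the members summed to 571, 618 and 504 FPKM in the CKO group against 460, 328 and 155 FPKM in the Control group. In this sum *Irgm1* made up 48.6% to 51.9% in the CKO libraries and 44.6% to 59.5% in the Control libraries, and *Iigp1* 0.665% to 1.49% and 0.708% to 4.79%.

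The order of the mean levels on the log2(FPKM + 1) scale was the same in both groups: *Irgm1*, *Igtp*, *Irgm2*, *Tgtp2*, *Iigp1* and *Tgtp1*. Among these 6 genes the 3 regulators stood above the effectors, which does not hold for the family: *Gm12250*, another effector, was above *Irgm2* in mean FPKM in both groups. In the CKO group *Irgm1* was above *Igtp* by 1.05 on the log2 scale (95% interval 0.63 to 1.48), and *Igtp* above *Irgm2* by 0.52 (0.21 to 0.83). *Iigp1* and *Tgtp1* did not differ beyond their spread in the CKO group (0.87, 95% interval -0.13 to 1.86), and in the Control group *Iigp1* was above *Tgtp1* by 1.78 (0.79 to 2.78). The step from *Tgtp2* down to *Iigp1* was 2.78 (2.0 to 3.55) in the CKO group and 1.20 (0.43 to 1.98) in the Control group. All other neighbours in the order differed beyond their spread in both groups.

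Of 11 symbols taken for other genes of the family, *Irgc1* and *Irgc* among them, 10 were listed and 7 were tested. Of the tested ones, 1 was higher in the CKO libraries and none was lower (2.57% and 4.74% of all tested genes). The gene that rose was *Gm5431*, at 46.8, 55.0 and 41.4 FPKM in the CKO group against 24.5, 15.3 and 6.99 FPKM in the Control group, and its log2 fold change was 1.70 (SE 0.39, limma adjusted p = 0.0450). Of its stretches of 100 bases, 26.8% are shared with other genes, mainly its neighbours *9930111J21Rik1* and *9930111J21Rik2*. This call was lost with voom (adjusted p = 0.0653), after rescaling (adjusted p = 0.0561 in limma), without a filter (adjusted p = 0.0802 in limma), and without any of the CKO libraries or Control library 2 (adjusted p 0.0772 to 0.178 in limma), while the log2 fold change in these fits lay between 1.59 and 1.90. Only 30, 63 and 8 of all tested genes were called without CKO library 1, CKO library 2 and Control library 2, so a lost call in those fits says little of 1 gene. *Ifi47* (Irgd), at 223 to 283 FPKM in the CKO group against 62.2 to 205 FPKM in the Control group, and *Gm12250* (Irgb10, an effector that also acts on bacterial membranes), at 98.9 to 118 and 24.8 to 74.4 FPKM, did not overlap between groups but missed the threshold. Their log2 fold changes were 0.95 (adjusted p = 0.201 in limma) and 1.14 (adjusted p = 0.107 in limma). Without Control library 3 they were 0.40 (adjusted p = 0.121 in limma) and 0.67 (adjusted p = 0.0269 in limma), so *Gm12250* was called there. With all 6 libraries, the log2 fold change of *9930111J21Rik1* was 0.95 (adjusted p = 0.0920 in limma). Of its stretches of 100 bases 64.6% were shared, and 40.3% of those of *9930111J21Rik2*, mostly with each other. The division of reads between these copies is therefore uncertain. In all, 5 of the 7 tested genes, both of these copies among them, did not overlap between groups, with CKO above (11.1% of all tested genes).

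By position, the family genes followed here fell into a group of 10 on chromosome 11 and a group of 4 on chromosome 18, which holds *Iigp1*. On chromosome 11, all 10 were tested and 10 of 10 had a positive fold change (median 0.96, range 0.49 to 1.70). Of them, 7 had CKO above without overlap, the related *9930111J21Rik1* and *9930111J21Rik2* among them, and 1 was called higher. Over all tested genes these shares were 36.5%, 11.1% and 2.57%. *Gm12185* lies between *Irgm1* and *Ifi47* and shares stretches of 100 bases with *Tgtp1*, *Tgtp2* and *Gm5431*, but was not among these 10. It and *Psme2b*, the 2 other tested genes in that stretch, had log2 fold changes of 0.22 to 0.36, and neither was called. On chromosome 18, 2 were tested, *Iigp1* and *Gm4951*, and both had a negative fold change. *Gm4951* was at 0.400, 1.12 and 0.579 FPKM in the CKO group against 4.95, 4.52 and 0.442 FPKM in the Control group, and its log2 fold change was -1.11 (SE 0.52, limma adjusted p = 0.214), which became -1.78 (adjusted p = 0.00301 in limma) without Control library 3. The low *Gm4841* and *F830016B08Rik*, which were named after their values were seen and were below the filter, stayed at or under 0.734 FPKM in every library. Control library 3 was the lowest Control library in 10 of 10 genes on chromosome 11 and in 4 of 4 on chromosome 18. *Irgq* of chromosome 7, also named after its values were seen, stood at -0.29 on the log2 fold scale (adjusted p = 0.263 in limma) and was highest in Control library 3, at 2.81 FPKM.

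**Figure D4:**
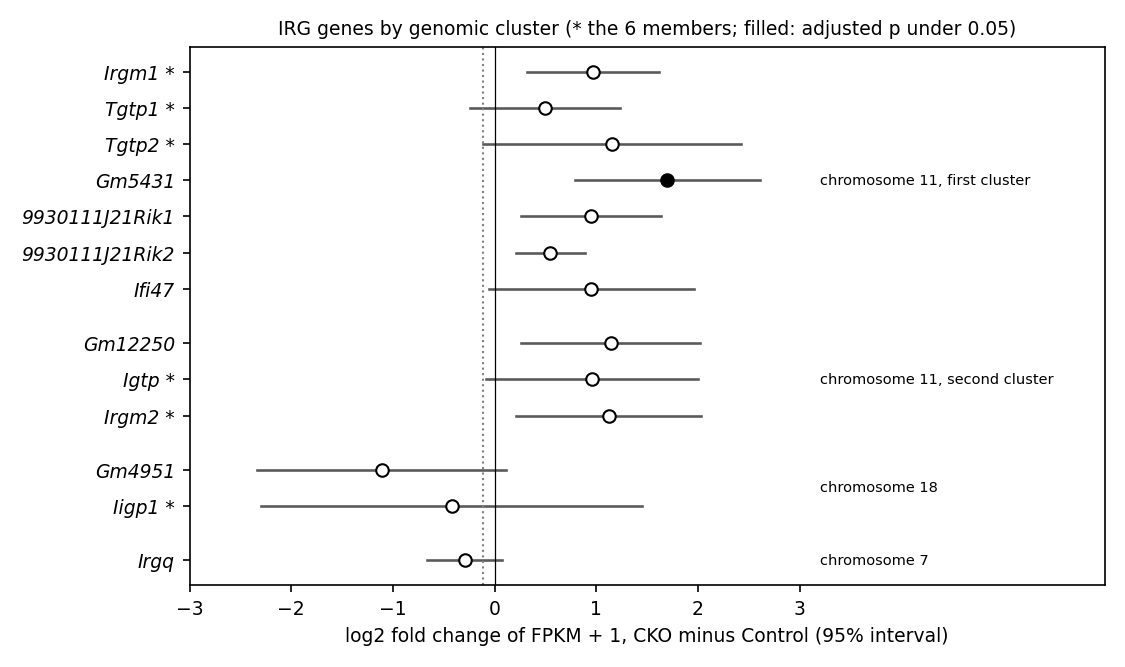
Log2 fold change of FPKM + 1, CKO minus Control (x axis), with the 95% interval from limma, for the 13 tested IRG genes followed here, grouped by genomic cluster; the dotted line is the median of all tested genes, -0.11. All 10 genes shown of chromosome 11 lie right of 0, both of chromosome 18 lie left of it with wide intervals, and only *Gm5431* is filled, which marks an adjusted p under 0.05.

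*Timd4* itself lies on chromosome 11 beside the first IRG cluster, which runs from *Irgm1* to *Ifi47*, with 2 tested genes, *Rack1* and *Trim41*, between *Timd4* and *Irgm1* in the gene order. Neither of these was called, with log2 fold changes of -0.17 and -0.13. Of the 20 nearest tested genes around the stretch from *Timd4* to *Irgm1*, other than the family genes followed here, 1 was called higher (*Pttg1*, named after its values were seen) and the median was -0.05. Of the 20 nearest tested genes outside the family on either side of the first cluster, which include *Timd4*, 0 were called in limma and their median log2 fold change was -0.10. Of the 20 around the second cluster on this chromosome, which runs from *Gm12250* to *Irgm2*, 0 were called and the median was 0.00 (rounded). Of the 20 around *Iigp1* and *Gm4951*, 1 was called lower (*Zfp608*, named after its values were seen) and the median was -0.28.

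The guanylate-binding proteins (GBPs) are another family of interferon-inducible GTPases, which act on the same vacuoles. Of 11 GBP genes, 10 were listed and 7 tested, and 0 passed the threshold in limma, with 2 at an unadjusted p under 0.05 and 0 called by voom. Under the replicate block, 2 were called higher (3.90% of all tested genes), *Gbp5* (adjusted p = 0.0200 in limma) and *Gbp2* (adjusted p = 0.0422 in limma). Their median log2 fold change was 0.96, and 4 of 7 had CKO above without overlap (11.1% of all tested genes). *Gbp5*, which supports inflammasome activation, was at 495, 562 and 369 FPKM in the CKO group against 274, 259 and 138 FPKM in the Control group (log2 fold change 1.13, adjusted p = 0.0597 in limma). *Gbp2* was at 442, 500 and 323 FPKM against 321, 236 and 127 FPKM (log2 fold change 0.96, adjusted p = 0.124 in limma). *Gbp3* and *Gbp7* had log2 fold changes of 1.02 (adjusted p = 0.199 in limma) and 1.0 (adjusted p = 0.195 in limma), and *Gbp6* one of 0.58 (adjusted p = 0.422 in limma). Without Control library 3 the log2 fold changes were smaller, at 0.81 for *Gbp5*, 0.59 for *Gbp2*, 0.46 for *Gbp3*, 0.44 for *Gbp7* and 0.04 for *Gbp6*. Of these, *Gbp5* was called (adjusted p = 0.0368 in limma). *Gbp4*, named after its values were seen, was at 2.63, 4.31 and 2.18 FPKM in the CKO group against 6.96, 5.32 and 0.533 FPKM in the Control group, the same order of libraries 1 and 2 of the Control group over all CKO libraries over Control library 3 as in *Iigp1*. Control library 3 was the lowest Control library in 10 of the 10 listed GBP genes.

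Of 18 genes of interferon signalling, 16 were tested, and 2 rose in the CKO libraries and none fell, with a median log2 fold change of 0.29. Over all tested genes 2.57% were called higher and 4.74% lower, and the median was -0.11. Under the replicate block 3 were called higher (3.90% of all tested genes). The third was *Nlrc5* (log2 fold change 0.80, limma adjusted p = 0.0290, against 0.116 without the block), an activator of MHC class I genes named after its values were seen. *Irf1*, the factor that binds ISRE-type elements of IRG and GBP genes, was at 187, 180 and 162 FPKM in the CKO group against 75.3, 65.6 and 76.7 FPKM in the Control group. Unlike the members, it was not low in Control library 3 (log2 fold change 1.27, standard error 0.13, adjusted p = 0.00651 in limma). The call of *Irf1* was lost without CKO library 1 (adjusted p = 0.0521 in limma) or Control library 2 (adjusted p = 0.0549 in limma), with log2 fold changes of 1.23 and 1.20. *Stat2*, part of the factor that carries the type I interferon signal, was at 98.8, 84.6 and 75.6 FPKM in the CKO group against 51.2, 36.5 and 23.3 FPKM in the Control group (log2 fold change 1.26, standard error 0.27, adjusted p = 0.0383 in limma). Its call was lost without any 1 of the CKO libraries or Control library 2 (adjusted p 0.0663 to 0.152 in limma), without a filter (adjusted p = 0.0695 in limma), after rescaling (adjusted p = 0.0525 in limma) and with voom (adjusted p = 0.0573), while its log2 fold change there lay between 1.16 and 1.41. Without CKO library 1, CKO library 2 and Control library 2, only 30, 63 and 8 of all tested genes were called, so a lost call there says little of 1 gene.

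*Irf7*, which amplifies type I interferon, was at 320, 317 and 238 FPKM against 240, 160 and 66.3 FPKM (log2 fold change 1.08, adjusted p = 0.160 in limma). Without Control library 3 its log2 fold change was 0.56 (adjusted p = 0.137 in limma). The log2 fold change of *Jak2* was -0.01 (adjusted p = 0.975 in limma). The genes of the interferons themselves were below the filter and are named after their values were seen. *Ifnb1*, the type I interferon of LPS-treated macrophages, was at 0.587, 0.831 and 1.14 FPKM in the CKO group against 0.197, 0.200 and 0.215 FPKM in the Control group, so the groups did not overlap. Without the filter on low values it was called higher (log2 fold change 0.61, limma adjusted p = 0.0464). This call rests on 19, 27 and 36 reads in the CKO libraries against 6 in each Control library. *Ifng* was at 0.275, 0.235 and 0.162 FPKM in the CKO group against 0.796, 0.679 and 0.0685 FPKM in the Control group, the order of libraries seen in *Iigp1* and *Gbp4*. Its values rest on 14, 12 and 8 reads in the CKO libraries against 38, 32 and 3 in the Control libraries.

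The genes of the ATG conjugation machinery, which places ubiquitin-like proteins on membranes and is needed for effector IRGs to load onto vacuoles, were looked at as well. All 11 were tested, 0 passed the threshold in limma, 1 was at an unadjusted p under 0.05 and voom called 0. That gene was *Map1lc3a* (named after its values were seen), at 4.19, 4.67 and 4.28 FPKM in the CKO group against 7.44, 6.95 and 5.53 FPKM in the Control group, with a fold change of -0.50 on the log2 scale (limma adjusted p = 0.0733) that was called lower without Control library 3 (limma adjusted p = 0.0226). The median log2 fold change of the 11 was -0.16, with a range from -0.50 to 0.23. *Gabarap*, *Gabarapl1*, *Atg3*, *Map1lc3b* and *Gabarapl2* had log2 fold changes of -0.04, -0.20, 0.04, -0.33 and -0.16. Some depended on single libraries. Without Control library 3, *Gabarap* stood at 0.08, *Gabarapl1* at 0.17 and *Map1lc3b* at -0.12. Without Control library 1, *Gabarapl1* stood at -0.56 and *Atg3* at -0.15. None of these was called. Control library 3 was the lowest Control library in 3 of 11.

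Of the 10 genes outside the family whose profile over the 6 libraries was most like the mean profile of the members, among 5452 genes with a mean of at least 5 FPKM, those reported here were *Gbp6*, *AW112010*, *Ddx60*, *Ifi213*, *Batf2*, *1600014C10Rik*, *Il18*, *Enpp4* and *Tpst1*. Likeness was the root mean square distance of centred log2(FPKM + 1) values, which ran from 0.11 to 0.16. The choice itself fixes that these genes were low in Control library 3. *AW112010* was at 231, 304 and 214 FPKM in the CKO group against 279, 180 and 57.5 FPKM in the Control group, and *Ifi213*, of the interferon-inducible p200 family, at 18.7, 19.0 and 13.1 FPKM against 16.6, 11.8 and 3.70 FPKM. None of the 10 passed the threshold in limma, with adjusted p from 0.275 to 0.480. The mean profile stood at 0.25, 0.61 and 0.20 in the CKO libraries and at 0.40, 0.01 and -1.47 in the Control libraries, relative to the mean of each gene.

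**Figure D5:**
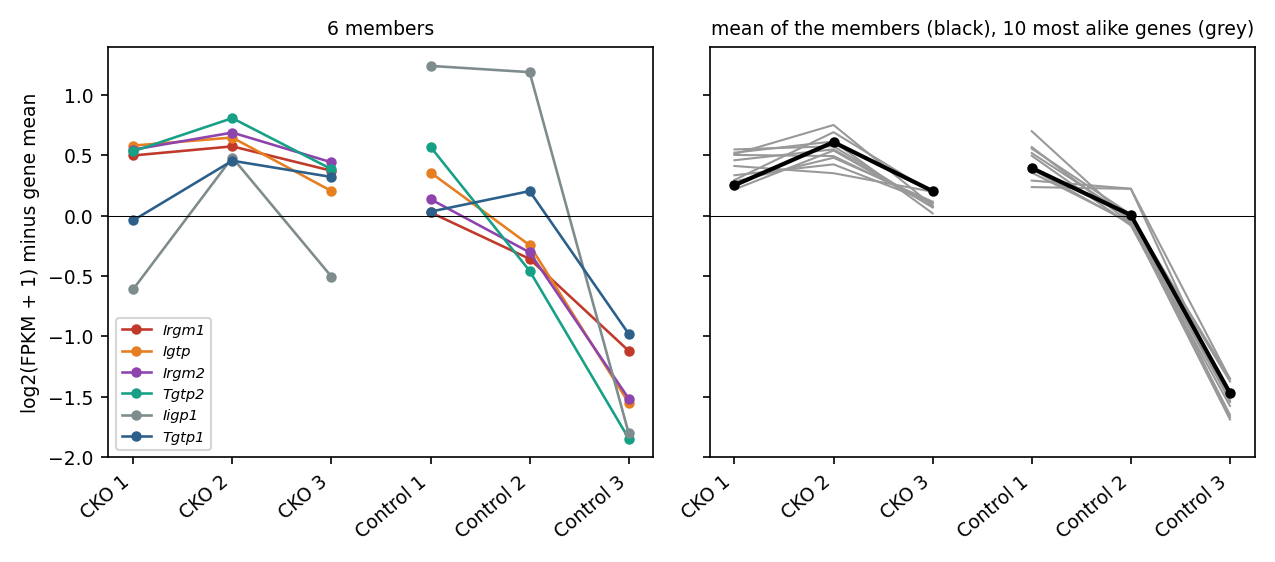
Log2(FPKM + 1) minus the gene's mean over the 6 libraries (y axis) in each library (x axis), for the 6 members (left) and for their mean and the 10 genes most like it (right); lines join the values of one gene within a group. Control library 3 is the low point of every curve, and of the 6 members *Iigp1* alone has its 2 highest values in Control libraries 1 and 2.

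Markers of other cells also differed between these libraries; those named were picked after their values were seen. Of the B cell markers, 5 of 6 were listed and all 5 fell in limma (4.74% of all tested genes). Their summed level was 2.78 to 5.52 FPKM in the CKO group against 115, 78.8 and 27.5 FPKM in Control libraries 1 to 3. The 6 markers of large peritoneal macrophages, *Timd4* among them, summed to 3.87 to 7.73 FPKM in the CKO libraries and to 143, 89.9 and 34.2 FPKM in the Control group, and 2 of 4 tested ones, *Icam2* and *Prg4*, fell. Control library 3 was the lowest Control library for both sums, and also for the summed markers of T cells, neutrophils (by little, 183 against 186 FPKM in Control library 2), and small peritoneal macrophages with dendritic cells. Single markers went the other way. *S100a9* (0, 2.30 and 5.12 FPKM in Control libraries 1 to 3), *Flt3* (0.0936, 0.169 and 0.373 FPKM) and *Zbtb46* (0.144, 0.209 and 0.349 FPKM) were highest in Control library 3. The 5 mast cell markers summed to 1.28 to 1.66 FPKM and 27.9 to 36.1 FPKM, and 4 of 4 tested ones fell. Here Control library 3 was the highest. *Fcer1a* was at 0 in CKO libraries 1 and 3.

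All 7 macrophage markers were tested, and they did not move together. The Fc receptor gene *Fcgr1* rose. *Csf1r* (log2 fold change -0.71, limma adjusted p = 0.0903) and *Cd14* (-0.73, limma adjusted p = 0.0631) had every CKO library below every Control library but missed the threshold, and *Adgre1* and *Itgam* stood at -0.24 and -0.26 with overlap. The sum of the 7, at 2621 to 2876 FPKM in the CKO group against 2194 to 2665 FPKM in the Control group, had *Cd68* as its largest part, at 1572 to 1685 FPKM and 816 to 1379 FPKM. T and NK cells are sources of interferon-γ: the 6 T cell markers summed to 0.849 to 1.53 FPKM in the CKO group against 0.996 to 3.25 FPKM in the Control group, with *Cd3d* at 0 in CKO libraries 2 and 3, and the listed NK cell markers to at most 0.112 FPKM. Of 6 neutrophil markers, 4 were tested and 2, *S100a8* and *Camp*, fell (78.9 to 104 and 183 to 210 FPKM in sum). The other tested ones overlapped between groups and did not move together. *Csf3r* had a log2 fold change of 0.46 (limma adjusted p = 0.304) and *S100a9* one of -0.42 (limma adjusted p = 0.667). Of the 6 markers of small peritoneal macrophages and dendritic cells, 3 were tested and 1, *Irf4*, fell (362 to 971 and 649 to 1802 FPKM), and of those of mesothelial cells and fibroblasts 0 of 3 passed (11.2 to 29.3 and 2.06 to 11.8 FPKM). The part that these cells had in the values of the members was not tested.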

How the data were processed

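Total RNA of PEMs was sequenced in 6 libraries, 3 per group. The library kit, the aligner and the counting are not given in the sources used here; the submitters' processing notes name the mouse build mm9. The authors deposited 1 table with FPKM per gene and library, and signal columns with the mean of normalized reads per group. Whole reads were recovered from these columns, with 100% of values whole within 0.01 reads in each library. The fold changes, p-values and q-values of the authors' own comparison, made with DESeq2, were not used, and 0 columns of per-library values were left out.

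Log2(FPKM + 1) was fitted with limma 3.58.1 (R 4.3.3; empirical Bayes with an intensity trend) for the 9030 genes with a mean of at least 1 FPKM in one group, with Benjamini-Hochberg adjustment and a threshold of 0.05. The pseudocount of 1 understates the change of low genes. The fit was tested on simulated data. The members and gene lists were chosen with earlier results of these data known. Named are the 6 members, *Timd4* and *Lyz2*, up to 5 genes per list (those past the threshold, then by mean FPKM) and the 10 genes of the most similar profile. Gene positions and names came from RefSeq (GRCm38.p6), in which 9006 of the 9030 tested symbols were found; no coordinates of mm9 are given. A gene that the rule names is not reported here.

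Deviations of same-numbered libraries from their group means correlated at 0.11, 0.11 and 0.30, all above 0.1, while libraries with different numbers gave -0.33 to 0.29, the highest of these (CKO 2 with Control 1) above the first 2 values. By the rule of all above 0.1 the replicate numbers were taken to pair the libraries, from this check alone, and calls under the block rest on it. Alternatives were no filter, at least 10 reads in every library, a pseudocount of 0.1, the block, rescaling by the median of ratios, voom on recovered reads with TMM factors, and each library left out.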

Additional observations from a re-analysis of the deposited data

How the results depend on the processing

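Of 72 repeats of the member fold changes, 12 for each gene, 63 kept their direction and their side of the threshold, 7 passed the threshold in the same direction and 2 reversed. With the replicate block, *Irgm1* passed (0.97, adjusted p = 0.0485 in limma), so that 1 member, 2 guanylate-binding proteins and 3 interferon signalling genes were called; the block changed no other call of a member, and it called 855 of all tested genes. With 1 library left out, the log2 fold change ran from 0.65 to 1.22 for *Irgm1*, from 0.64 to 1.47 for *Irgm2*, from 0.52 to 1.73 for *Tgtp2* and from -1.43 to 0.10 for *Iigp1*, which reversed without Control library 1 (0.10) or 2 (0.07). Counts past the threshold then ran from 0 to 3 for the members, 0 to 3 for the other IRG genes, 0 to 1 for the guanylate-binding proteins, 0 to 2 for interferon signalling, 0 to 1 for ATG conjugation and 8 to 1333 for all tested genes. The count of all genes was 30 without CKO library 1, 63 without CKO library 2, 8 without Control library 2 and 1333 without Control library 3. Of the other IRG genes, 0 were called without a filter, after rescaling and with voom, and 2 with at least 10 reads in every library. Of the interferon signalling genes, 1 was called after rescaling and 1 with voom. Rescaling divided the calls over all genes into 327 higher and 346 lower, against 232 and 428. The cause of these changes was not tested.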
